A study of Gracilariopsis lemaneiformis with 12 samples.

Results

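Of 25766 loci assembled from the red seaweed Gracilariopsis lemaneiformis, 37 were lower with indole-3-acetic acid (IAA) than in untreated controls at day 1 and higher with IAA than in controls at day 3. A locus is either a single assembled sequence with a Unigene ID or the sum of all contigs whose IDs share a cluster number beginning with CL. The 37 were picked on group means of FPKM (fragment numbers scaled to sequence length and to library size), compared as log2(mean FPKM + 1). A member had at least 5 FPKM in its highest group, was lower with IAA at day 1 by at least 0.4 on that scale and was higher with IAA at day 3 by at least 0.4. In addition, its 3 IAA libraries lay below all 3 control libraries at day 1 and above all 3 at day 3. The members are 0.671% of the 5512 loci that reached 5 FPKM. Since these values chose the members, the IAA differences on each day are given as a description and are not tested.

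IAA is an auxin, a plant growth hormone that in land plants is known for steering cell expansion, organ initiation and branching, and for changing transcription through the removal of repressor proteins. Many early auxin genes of land plants respond quickly and then settle, so a response can differ between an early and a later time. Red algae contain IAA, while the canonical auxin receptor pathway is known from land plants. Gracilariopsis lemaneiformis is farmed for agar, and the study addressed its growth and branching under IAA. The files used here carry IDs with no gene names or sequences, so no member can be given a role and few are named.

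All groups come from strain 981 and tissue labelled rhizoids, with a source label that names branch rhizoids and a stretch of primary rhizoid. The 4 groups of 3 libraries are tissue treated with 100 µM IAA for 3 days, untreated controls of day 3, tissue treated with 100 µM IAA for 1 day, and untreated controls of day 1. The series' design text also mentions branches, and one reading of it has different tissue on each day, so time and tissue cannot be told apart. The labels do not say whether replicates are separate cultures, so the p-values rest on the spread among libraries, part of which may be technical. Read totals are unknown, since FPKM values carry none. In whole tissue, fewer cells of a type and less RNA per cell cannot be told apart.

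Set against its own mean over the 12 libraries, the median member stood at 119%, 115% and 114% in the day-3 IAA libraries and at 77.5%, 75.5% and 70.2% in the day-3 controls. In the day-1 IAA libraries it stood at 70.3%, 72.1% and 77.8%, and in the day-1 controls at 139%, 135% and 145%. The day-1 controls thus held the highest medians and the day-3 IAA libraries the next, and the other 6 libraries lay close together. Summed over the 37 members, expression was 905 ± 14.1 FPKM with IAA and 601 ± 12.7 FPKM in controls at day 3, and 603 ± 16.0 FPKM with IAA and 1286 ± 17.7 FPKM in controls at day 1 (SD, n = 3). A single member, Unigene7611_All, gave 310 FPKM of the last value. Without it the sums were 848 ± 13.2 and 565 ± 11.1 FPKM at day 3 with IAA and in controls, and 535 ± 11.8 and 976 ± 19.0 FPKM at day 1. Other abundant members still weigh on these sums, the next highest day-1 control means being 179 and 143 FPKM.

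**Figure D1:**
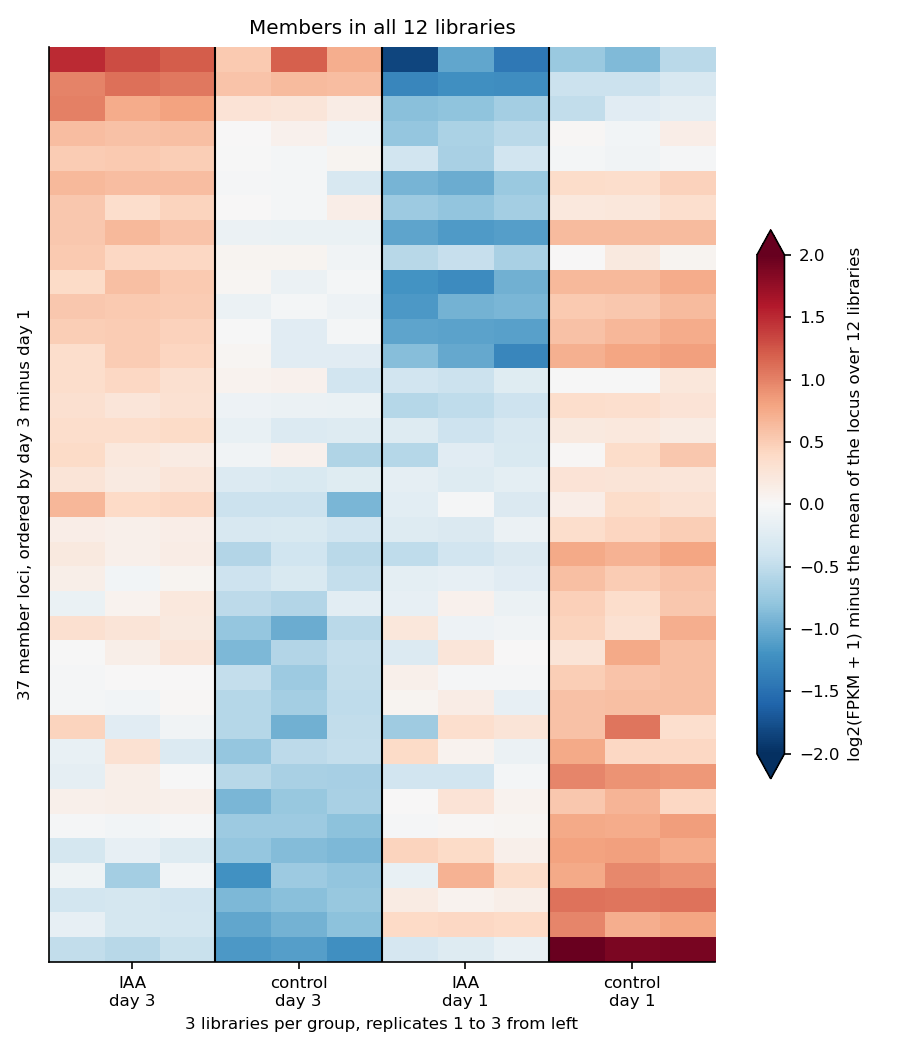
Level of each of the 37 members (rows) in each of the 12 libraries (columns, replicates 1 to 3 within a group), as log2(FPKM + 1) minus the mean of the locus over all libraries. Rows run from the largest rise of the day mean at the top to the largest fall at the bottom. In the upper rows the day-1 IAA libraries are mostly the bluest, and in the lower rows the day-3 controls.

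The difference between IAA and control ran between 0.41 and 1.07 at day 3 (median 0.58) and between -2.17 and -0.41 at day 1 (median -0.67), on the log2(mean FPKM + 1) scale. Over the 5512 loci of 5 FPKM or more the medians were 0.01 at day 3 and -0.06 at day 1. With median-of-ratios size factors the members' medians were 0.27 at day 3 and -0.59 at day 1, and after quantile normalization 0.40 and -0.63. For 23 members the day-1 difference was the larger in size. At day 1, 10 members were at 0.5 of the control mean or less, and at day 3, 4 members were at 2-fold of the control mean or more. No member met both of these limits, so 14 members met 1 of them. The 10 members with the deep day-1 difference were at 22.0% to 49.0% of the control mean at day 1 and at 1.34-fold to 1.81-fold of it at day 3. The 4 members with the large day-3 difference were low, with control means of 1.85 to 3.61 FPKM at day 3, and stood at 57.4% to 71.7% of the control mean at day 1.

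The largest differences at day 1 were those of Unigene7611_All and Unigene8519_All. Unigene7611_All was at 57.25, 54.87 and 59.26 FPKM with IAA at day 3, against 35.99, 37.29 and 34.18 FPKM in day-3 controls. At day 1 it was at 64.04, 67.57 and 72.97 FPKM with IAA, against 323.09, 301.24 and 306.92 FPKM in controls. The day-1 controls stood alone, since the other 9 libraries reached at most 72.97 FPKM. IAA minus control was 0.66 at day 3 and -2.17 at day 1 for this member. Its day-1 control mean was the highest group mean of any member, while in the other groups Unigene3455_All, named after its values were seen, was higher.

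Unigene8519_All was at 10.7, 12.13 and 11.4 FPKM with IAA at day 3, against 8.44, 6.88 and 6.83 FPKM in controls. At day 1 it was at 4.1, 3.53 and 2.73 FPKM with IAA, against 14.06, 14.88 and 15.29 FPKM in controls. None of the 4 groups overlapped another, with day-1 IAA lowest and day-1 controls highest. IAA minus control was 0.57 at day 3 and -1.82 at day 1.

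The largest differences at day 3 were those of Unigene288_All and Unigene7205_All, both low in FPKM. Unigene288_All was at 6.26, 5.03 and 5.1 FPKM with IAA at day 3, against 2.4, 2.4 and 1.42 FPKM in controls, a difference of 1.07 on the log2 scale. At day 1 it was at 2.94, 3.49 and 2.75 FPKM with IAA, against 3.98, 4.92 and 4.62 FPKM in controls, a difference of -0.44. Here day-3 IAA was the highest group and day-3 control the lowest, which held for no other of the 37 members. Unigene7205_All was at 5.03, 4.74 and 4.48 FPKM with IAA at day 3, against 1.8, 1.42 and 2.32 FPKM in controls, a difference of 1.01. At day 1 it was at 4.62, 3.46 and 3.59 FPKM with IAA, against 5.56, 4.96 and 7.0 FPKM in controls, a difference of -0.48. Its day-3 controls were clear of every other library, and its day-3 IAA libraries overlapped those of the day-1 groups.

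**Figure D2:**
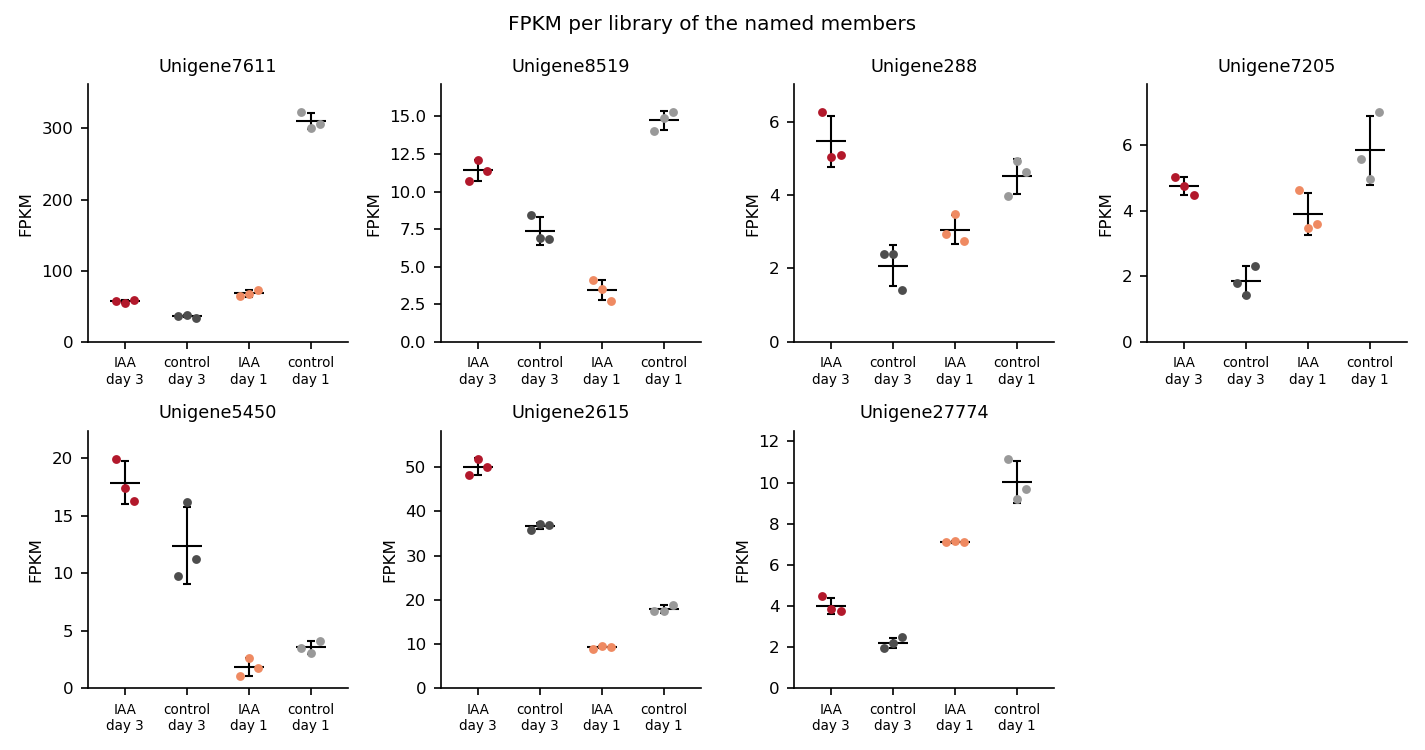
FPKM per library of the 7 members named in the text, with IAA and control at day 3 and then IAA and control at day 1 along the axis of each panel. Points are libraries, and bars give the mean and SD of 3 libraries. In each panel the day-3 IAA points lie above the day-3 controls and the day-1 IAA points below the day-1 controls, as the choice of members requires.

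The choice of members allows only day-3 IAA or day-1 control as the highest group and only day-3 control or day-1 IAA as the lowest, and the members are described here by which of these they had. In 19 members the day-1 control was highest and the day-3 control lowest, with the IAA groups between them. These had median group means of 7.36 FPKM with IAA and 3.74 FPKM in controls at day 3, and 7.12 FPKM with IAA and 10.6 FPKM in controls at day 1. In 10 members day-3 IAA was highest and day-1 IAA lowest, with medians of 30.5 and 21.3 FPKM with IAA and in controls at day 3, and 11.2 and 18.3 FPKM at day 1. In 7 members the day-1 control was highest and day-1 IAA lowest, with medians of 19.1 and 12.8 FPKM with IAA and in controls at day 3, and 5.43 and 20.8 FPKM at day 1.

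Within the last set, 5 single Unigenes were at no more than 30.6% of control at day 1 and had closely similar profiles. They were grouped after their values were seen, and Unigene8519_All is one of them. The rest of that set were at 56.0% and 57.7% of control at day 1. Outside the set, a member with day-1 IAA lowest but day-3 IAA highest came close, at 34.1%. The ranges of the 5 are narrow in part because of this cut and the shared order of groups. Relative to each locus' own day-1 control mean, these 5 stood at 77.4% to 97.2% with IAA and 50.1% to 62.2% in controls at day 3, and at 23.4% to 30.6% with IAA at day 1. Their day-1 control means were 14.7 to 25.8 FPKM. Whether these are separate genes or pieces of fewer transcripts cannot be read from the IDs.

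Day 3 against day 1 shares libraries with the values that chose the members when it is taken within IAA or within controls, so those differences are also a description. Within IAA, 22 members had all day-3 libraries above all day-1 libraries and 4 had them below, against 27.5% and 37.0% of the 5512 loci. Within controls, 3 members had all day-3 libraries above the day-1 libraries and 29 had them below, against 25.2% and 46.9%. The difference between days ran between -0.69 and 2.74 within IAA (median 0.54) and between -3.08 and 1.55 within controls (median -0.84). Over the 5512 loci these medians were -0.03 and -0.07. The day-3 IAA libraries all lay above the day-1 controls in 11 members, all below them in 19 and overlapped them in 7, against 21.7% above and 44.4% below over the 5512 loci.

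The mean of IAA and control at day 3 minus the mean of IAA and control at day 1 was tested. Its error is uncorrelated with the errors of the IAA differences on each day if all groups have the same spread, as the fit assumes. The members' median coefficients of variation differed between groups, from 4.13% to 9.63%, so this may not hold for them. Across loci, moreover, this day difference varied with the conditions that chose the members. Of loci that met only the day-3 limits of the rule, 80.1% were lower between days by this test. Of loci that met only the day-1 limits, 30.2% were lower. The requirement of no overlap also drew on the spread within the same libraries. The members' calls and shares are thus not free of their choice. This contrast compares the mean level of the days and can hold opposite changes within IAA and within controls. Of the 37 members, 16 had a higher day mean and 18 a lower one at day 3 (limma, Benjamini-Hochberg adjusted p under 0.05 over 11044 loci), and 3 did not pass the test. In the background, 26.8% of the 5512 loci of 5 FPKM or more were higher and 46.5% lower, and 15.4% and 54.7% of all loci tested. The members' shares were 43.2% higher and 48.6% lower. The 5512 loci are not matched to the members in level, and the share of loci that were higher differed with level. It also rested on the scaling: median-of-ratios size factors, which moved the median day difference of all loci to 0.02 from -0.22, gave 19 members higher and 12 lower (51.4% and 32.4%), against 73.3% and 17.1% of the 5512 loci, so the members' higher share then lay below that of the 5512 loci. Quantile normalization gave 16 and 15 (43.2% and 40.5%), against 33.1% and 36.1%.

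The 16 members with a higher day mean had changes of 0.14 to 2.15 on the log2(FPKM + 1) scale (median 0.47), and the 18 with a lower one had changes of -1.67 to -0.21 (median -0.63). In the 16, the day difference within IAA had a median of 1.49 and that within controls a median of -0.32. Of these 16, 12 were lower at day 3 within controls while all 16 were higher within IAA, so for most of them the day mean averages opposite differences. In the 18, the medians were -0.02 within IAA and -1.30 within controls, where all 18 were lower. The median group means of the 16 were 22.6 and 13.9 FPKM with IAA and in controls at day 3, and 6.95 and 20.5 FPKM at day 1. Those of the 18 were 7.20 and 3.67 FPKM at day 3, and 6.78 and 10.3 FPKM at day 1. The direction of the day mean follows by arithmetic where day-3 IAA is highest and day-1 IAA lowest, or day-1 control highest and day-3 control lowest, so its match with those orders is no further result. The choice of members also puts the day difference within IAA above that within controls in each member. A higher day mean thus requires a rise within IAA, and a lower one a fall within controls. That all 16 rose within IAA and all 18 fell within controls is therefore fixed and no further result.

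The largest rises of the day mean were in Unigene5450_All and Unigene2615_All. Unigene5450_All was at 19.99, 17.4 and 16.29 FPKM with IAA and 9.73, 16.17 and 11.29 FPKM in controls at day 3, against 1.1, 2.64 and 1.76 FPKM and 3.47, 3.06 and 4.15 FPKM at day 1. All 6 day-3 libraries exceeded all 6 day-1 libraries, and the rise was 2.15 ± 0.14 (SE; limma adjusted p = 9.242e-08). Its control replicate 2 at day 3 came within 0.12 FPKM of the lowest IAA library of that day, so its groups were narrowly apart on that day. Unigene2615_All was at 48.16, 51.95 and 50.14 FPKM with IAA and 35.84, 37.21 and 36.88 FPKM in controls at day 3, against 8.97, 9.55 and 9.44 FPKM and 17.37, 17.41 and 18.89 FPKM at day 1. Its 4 groups did not overlap, and the rise was 1.65 ± 0.03 (SE; limma adjusted p = 6.31e-13). Here the day-3 mean with IAA was 5.37-fold of the day-1 mean with IAA, and the day-3 control mean 2.05-fold of the day-1 control mean.

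The largest falls of the day mean were in Unigene7611_All, whose values stand above, and Unigene27774_All. For Unigene7611_All the fall was -1.67 ± 0.03 (SE; limma adjusted p = 2.549e-12), with a difference of -0.25 within IAA and -3.08 within controls. Unigene27774_All was at 4.47, 3.84 and 3.75 FPKM with IAA and 1.98, 2.18 and 2.48 FPKM in controls at day 3, against 7.1, 7.18 and 7.09 FPKM and 11.17, 9.19 and 9.69 FPKM at day 1. Its fall was -1.24 ± 0.06 (SE; limma adjusted p = 9.36e-09), and it was lower at day 3 with IAA as well as in controls. Of the other members named for their IAA differences, Unigene8519_All had a day mean difference of 0.29 ± 0.08 (limma adjusted p = 0.005124), which averages 1.48 within IAA and -0.91 within controls. Unigene7205_All had one of -0.51 ± 0.10 (limma adjusted p = 0.0006963), which averages 0.23 within IAA and -1.26 within controls. Unigene288_All did not pass the test (-0.09 ± 0.10, limma adjusted p = 0.415), and its sign turned to 0.17 under size factor scaling and 0.23 under quantile normalization. The call of Unigene7205_All was lost after quantile normalization (limma adjusted p = 0.1127).

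**Figure D3:**
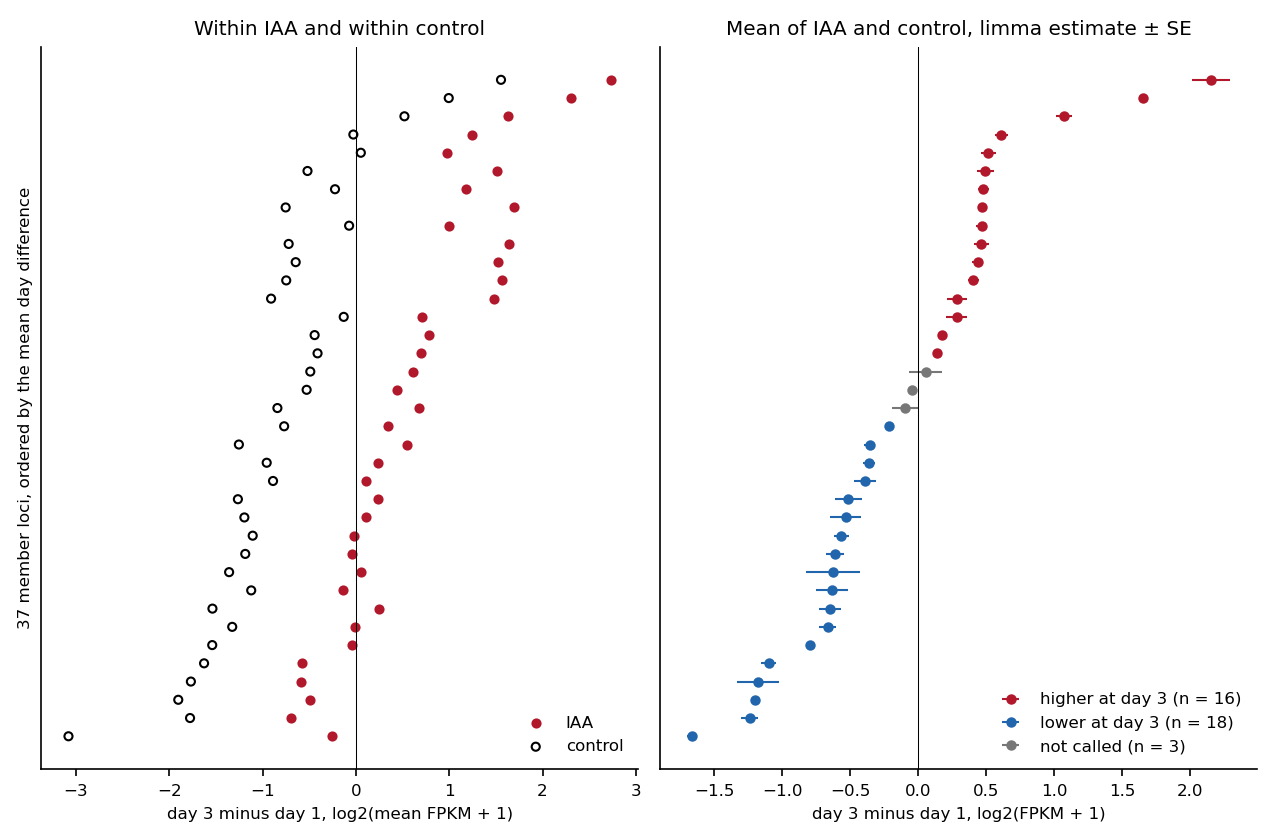
Day 3 minus day 1 for each of the 37 members, ordered alike in both panels. The left panel gives the difference of log2(mean FPKM + 1) within IAA (filled) and within controls (open), and the right panel the limma estimate for the mean of IAA and control with its SE. In the left panel the IAA point lies right of the control point in every row, as the choice of members requires, and in the right panel the day mean is higher in 16 members, lower in 18 and not called in 3.

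Among loci of 5 FPKM or more, 209 met the day-1 condition (3.79%) and 1154 met the day-3 condition (20.9%), and the members were 17.7% of the first list and 3.21% of the second. The 172 loci that met the day-1 condition alone had a median IAA difference of -0.02 at day 3. The 1117 loci that met the day-3 condition alone had a median IAA difference of -0.12 at day 1. Between days 14.2% of these 1117 were higher and 80.1% lower by the same limma test, and of the 172 loci 45.9% were higher and 30.2% lower. The reverse pattern, higher with IAA at day 1 and lower at day 3 by the same limits, was met by 21 loci, of which 66.7% were higher and 23.8% lower between days. No difference between these sets and the members was tested.

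**Figure D4:**
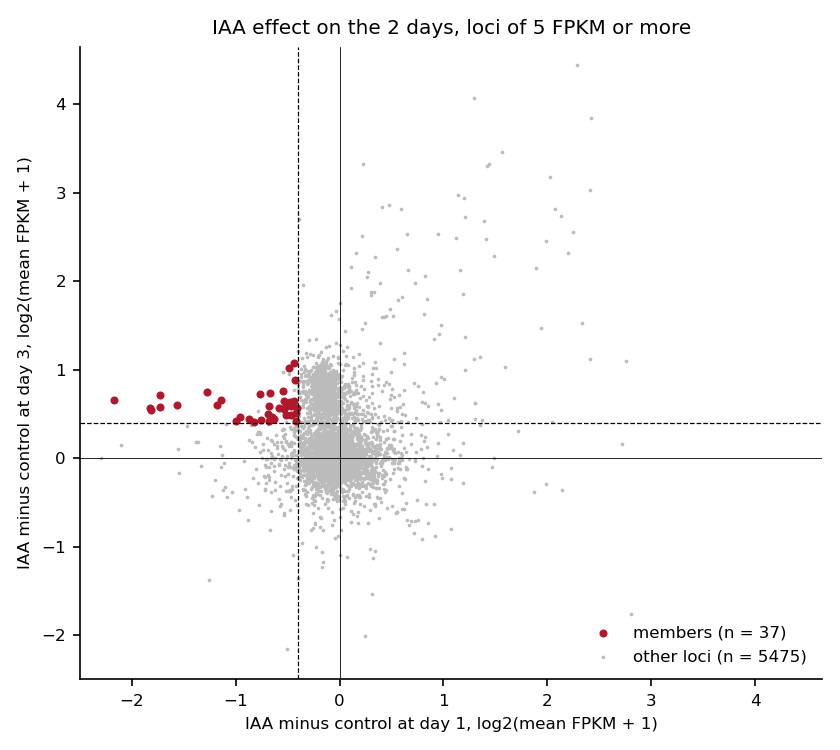
IAA minus control at day 3 against IAA minus control at day 1, as differences of log2(mean FPKM + 1), for the 5512 loci whose highest group mean was 5 FPKM or more. The dashed lines mark the limits of -0.4 and 0.4, and the members are the 37 loci left of one and above the other whose libraries also did not overlap. Members spread far to the left at day 1, to -2.17, and reach 1.07 at day 3.

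Of the 37 members, 34 were single Unigenes and 3 were clusters, so clusters made up 8.11% of members and 30.2% of the 5512 loci. In CL514 the 2 contigs moved alike. IAA minus control was 0.54 and 0.57 at day 3 and -0.49 and -0.43 at day 1 for its contigs. In CL1738 the first contig had differences of 0.78 at day 3 and -0.47 at day 1, and the second -0.25 and -0.42. The sum of CL1738 thus met the day-3 condition through its first contig, at 26.2 ± 1.38 FPKM with IAA and 14.9 ± 0.621 FPKM in controls (SD, n = 3). CL737 had 4 contigs, of which none exceeded a group mean of 5.22 FPKM, and its sum was at 5.31, 5.43 and 5.47 FPKM with IAA at day 3, against 3.64, 2.89 and 3.57 FPKM in controls. At day 1 the sum of CL737 was at 5.9, 5.3 and 5.31 FPKM with IAA, against 8.01, 8.49 and 8.7 FPKM in controls. IAA minus control for its contigs was 0.75, 0.36, -0.06 and 0.34 at day 3. At day 1 it was -0.27, -0.18, -0.09 and -0.62, so no contig met both limits. The first contig was at 2.03 FPKM in replicate 1 of day-3 IAA and at 0 in every other day-3 library. Without it, that library's sum would lie within the range of the day-3 controls.

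The members were less abundant than loci of 5 FPKM or more in general, with a median highest group mean of 17.9 FPKM against 29.6 FPKM. This median was 10.6 FPKM for the loci of the day-3 condition alone and 22.4 FPKM for those of the day-1 condition alone. For the loci with the reverse pattern it was 23.0 FPKM. Of the 37, 18 reached 20 FPKM in their highest group and 12 stayed under 10 FPKM, and no member was listed at 0 in any library. Their libraries also varied more within groups, with a median coefficient of variation of 4.13% with IAA and 6.79% in controls at day 3, and 9.63% with IAA and 4.73% in controls at day 1. For the 5512 loci these medians were 3.12%, 3.40%, 3.53% and 4.05% in the same order of groups. The part of abundance in this spread was not tested.

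At each limit a member and a locus outside lay close by. The member closest to the day-1 limit had a difference of -0.41, and a locus that met all other conditions missed it at -0.398. At day 3 the closest member had 0.41, and the closest locus outside had 0.39. The member with the lowest level had a highest group mean of 5.37 FPKM, and the closest locus outside had 4.82 FPKM. A further 301 loci met all but the day-1 limit, 45 all but the day-3 limit and 60 all but the limit on level, at any distance from it. Leaving out replicate 1 of day-1 IAA gave 57 loci in place of 37, of which 35 were members. With median-of-ratios size factors, which moved the median IAA difference of the 5512 loci at day 3 to -0.32, 2 members still met the rule, and after quantile normalization 16 did. All 37 kept a negative difference at day 1 and a positive one at day 3 under all 4 other scalings. The rule had asked for at least 0.4 in size on each day. The kept signs were thus largely fixed by the choice of members and are no further result. With size factors 25 of the 37 kept IAA libraries clear of controls at day 3, and 34 did at day 1.

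The authors' deposited tables, which hold sequences whose log2 ratios of IAA to control are 1 or more in size, list 14 of the 34 Unigene members on either day, against 10.4% of the 3849 Unigene loci of 5 FPKM or more. These tables rest on the contrasts that chose the members, so nothing is read from this. The authors' deposited table of day 3 lists 4 (9.12% of those loci) and that of day 1 lists 10 (2.13%), each in the direction of the members, and no Unigene member is in both (0.831%). The authors' deposited tables list 1 contig of a member on both days, CL737.Contig1_All, with log2 ratios of 7.88 at day 3 and -6.18 at day 1. It was at 2.03 FPKM in replicate 1 of day-3 IAA and 0.62 FPKM in replicate 1 of day-1 controls, and listed at 0 in the other 10 libraries. In the authors' deposited tables Unigene288_All and Unigene7205_All have log2 ratios of 1.40 and 1.36 at day 3. Unigene7611_All and Unigene8519_All have -2.19 and -2.09 at day 1 in the authors' deposited table. These are ratios with no pseudocount from the same libraries and are no independent measure.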

How the data were processed

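Gene expression was measured by RNA sequencing in 12 libraries, 3 in each of 4 groups taken from the sample titles. The authors deposited a table of FPKM values (named so in the file headers) of 30780 assembled sequences. Per the submitters' processing notes Bowtie2 2.2.5 was used, in a role not given in the sources used here, as are the assembler, the quantifier and any filter. The authors' deposited tables of changed sequences give a log2 ratio, a p-value and a q-value per day, from a test not given in the sources used here. FPKM of contigs sharing a cluster number was summed, giving 25766 loci. Read depth is not known from FPKM, so no test on counts was made.

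For the difference between days, log2(FPKM + 1) was fitted with 4 group means and a trend of the variance prior on abundance, using limma 3.58.1 under R 4.3.3, two-sided. The fit held 11044 loci averaging 1 FPKM or more across libraries, which all 37 members passed. Fold changes on this scale understate the change of low loci. The script was tested on simulated data. Named loci are the 2 members with the largest IAA difference on each day and the 2 with the largest called rise and fall between days. Alternatives were 4 scalings, 2 pseudocounts, no filter, a replicate block, limma without the trend, each library left out and, for membership, other level limits and unsummed sequences. The members and the rules were chosen with earlier results of these data known. Tables and figures were made with Python 3.11.15, pandas 2.3.3 and matplotlib 3.10.9.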

Additional observations from a re-analysis of the deposited data

Results flagged for a closer look

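The IAA difference had opposite directions on the 2 days in all 37 members, with every IAA library above the controls at day 3 and below them at day 1. The choice of members fixes this, and the difference between days was not tested. No group had more than 3 libraries, so single libraries were not screened.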

How the results depend on the processing

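The number of loci meeting the rule was 37 as deposited. It was 2 with median-of-ratios size factors, 17 after quantile normalization and 97 with no limit on level. It was 34 to 57 on leaving out 1 library, with 57 without replicate 1 of day-1 IAA. The other settings gave 25 to 54. The cause of these moves was not tested. In the comparison of day means, 16 members were higher and 18 lower. Over all alternatives the numbers were 16 to 19 and 12 to 19. Of the 34 calls, 28 were kept with size factors. There 5 were lost and 1, Unigene5925_All, named after its values were seen, reversed to 0.13, against -0.21 as deposited. Size factors also called 2 members, both higher, that were not called as deposited. Quantile normalization lost 3. No other setting lost one. Scaling to abundant loci and leaving out replicate 2 of day-1 IAA each called 1 further member, as lower. Over all loci, 4531 were higher and 2626 lower with size factors, and 2789 were lower after quantile normalization. Unigene288_All, not called, turned to 0.17 and 0.23 under these scalings.

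With the replicate number as a block, 16 members were higher and 18 lower, the same 34 calls. Same-numbered libraries did not deviate together (Pearson's r -0.05 to 0.05 over 18 pairs, across loci), so the numbers are not taken to pair the samples. The FPKM values carry no depth, so no counting error can be given for low members.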
